A study of Homo sapiens with 6 samples.

Results

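The nucleic acid deaminases APOBEC3A, APOBEC3B, APOBEC3C, APOBEC3D, APOBEC3F, APOBEC3G, APOBEC3H, ADAR and ADARB1 were read from the deposited expression table by gene symbol. They are 9 of the 60671 genes in the table, 7 of them APOBEC3 genes and 2 of them ADAR genes. The samples were 6 libraries of HaCaT, a human keratinocyte line that grows without limit in culture, with the genotype given as WT. For 24 h before RNA was taken, 3 libraries (IFN-beta 1 to 3) had serum-free DMEM-H with IFN-beta at 160 ng/mL and 3 libraries (control 1 to 3) had the same medium without it. IFN-beta, a secreted signal of the type I interferon family, switches on antiviral genes, and the comparison asks how these genes respond to it. The batch of each library is labelled unknown. Nothing in the labels says that the 3 libraries of a group are separate cultures. The p-values therefore cover only the spread among these libraries, and that spread may be technical.

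APOBEC3 enzymes convert cytosine to uracil in single-stranded DNA, and several of them are packaged into retroviral particles, where they mutate the viral DNA as it is copied. ADAR enzymes convert adenosine to inosine in double-stranded RNA, and ADAR keeps the cell's own double-stranded RNA from setting off the sensor IFIH1 (MDA5). Both kinds hold a zinc ion in the active site, where a histidine and a glutamate stand with 1 residue between them. APOBEC3A, APOBEC3C and APOBEC3H have a single deaminase domain, and the other APOBEC3 enzymes have a pair of them, of which the last is the catalytic one.

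The codons of that histidine and glutamate, in capitals in the following stretches, are shown to place the members beside each other at the site that defines them. Each stretch is 27 coding bases, written 5′ to 3′ on the gene's own strand from GENCODE release 29 (build GRCh38), and each lies in 1 exon. For enzymes with 2 matches it is the last match.
APOBEC3A (chr22:38961411-38961437, plus strand): tacggccgcCATGCGGAGctgcgcttc
APOBEC3B (chr22:38991356-38991382, plus strand): tacggccgcCATGCGGAGctgcgcttc
APOBEC3C (chr22:39017778-39017804, plus strand): acccattgtCATGCAGAAaggtgcttc
APOBEC3D (chr22:39031706-39031732, plus strand): acccattgtCATGCAGAAaggtgcttc
APOBEC3F (chr22:39052086-39052112, plus strand): acccattgtCATGCAGAAaggtgcttc
APOBEC3G (chr22:39086303-39086329, plus strand): gaaggccgcCATGCAGAGctgtgcttc
APOBEC3H (chr22:39101237-39101263, plus strand): aaaaagtgcCATGCAGAAatttgcttt
ADAR (chr1:154589386-154589412, minus strand): aatgactgcCATGCAGAAataatctcc
ADARB1 (chr21:45182677-45182703, plus strand): aatgactgcCATGCAGAAataatatct

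The stretch was the same in APOBEC3A and APOBEC3B, which differed by 0 of 27 bases, and the same in APOBEC3C, APOBEC3D and APOBEC3F. APOBEC3G differed from APOBEC3B by 4 bases and from APOBEC3C by 11. ADAR and ADARB1 differed by 2 bases. APOBEC3C and APOBEC3F, with the same stretch, did not share a level or a response: APOBEC3C fell and APOBEC3F rose, as the values given with each gene show. APOBEC3D, with that stretch too, was listed near the detection floor. Its level is uncertain, since 83.2% of its exonic bases also belong to another gene.

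Levels are FPKM as deposited by the authors, that is, fragments divided by the gene's length and the library's depth, so they can be set beside each other between genes. Errors are SD over 3 libraries per group for levels and SE for log2 changes. The libraries held 25832158 to 30594527 reads, a depth recovered from the steps in the FPKM values, and 23262 to 24806 genes had a value above 0. The test was limma on log2(FPKM + 0.5) over the 15163 genes that averaged 0.5 FPKM or more, with Benjamini-Hochberg adjustment over all of them and a threshold of 0.05. The interferon response was present in every treated library: of 7 response genes 7 rose, where 22.5% of all tested genes were called higher. MX1 among them went from 4.57 ± 0.204 to 680 ± 15.7 FPKM. The defining keratinocyte marker KRT5 stood at 1374 ± 81.0 FPKM in controls and 965 ± 14.8 with IFN-beta, and KRT14 at 1033 ± 42.8 and 1099 ± 32.2. Of the 6 keratinocyte markers KRT15 (log2 change -1.29) and KRT5 (-0.51) fell, LAMA3 (0.76) and TP63 (0.41) rose, and KRT14 and DSG3 did not pass. KRT14 did pass, as a rise of 0.28, with quantile normalization (limma adjusted p = 5.26e-04). KRT15 went from 398 to 160 FPKM in the mean. Together the 6 summed to 2902 to 3262 FPKM in controls and 2669 to 2719 with IFN-beta.

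A gene was called expressed in a group when it reached 1 FPKM in all 3 libraries of it. In controls 4 members were expressed (ADAR, APOBEC3C, APOBEC3B and APOBEC3F), 4 were low (ADARB1, APOBEC3G, APOBEC3H and APOBEC3D) and 1, APOBEC3A, was not detectable. With IFN-beta 6 were expressed, since APOBEC3G and ADARB1 passed 1 FPKM, 2 were low and APOBEC3A was again not detectable. With a minimum of 2 FPKM, 4 members were expressed in controls and 5 with IFN-beta. With a minimum of 0.5 FPKM, 6 were expressed in controls, APOBEC3G and ADARB1 among them, and 7 with IFN-beta.

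**Figure D1:**
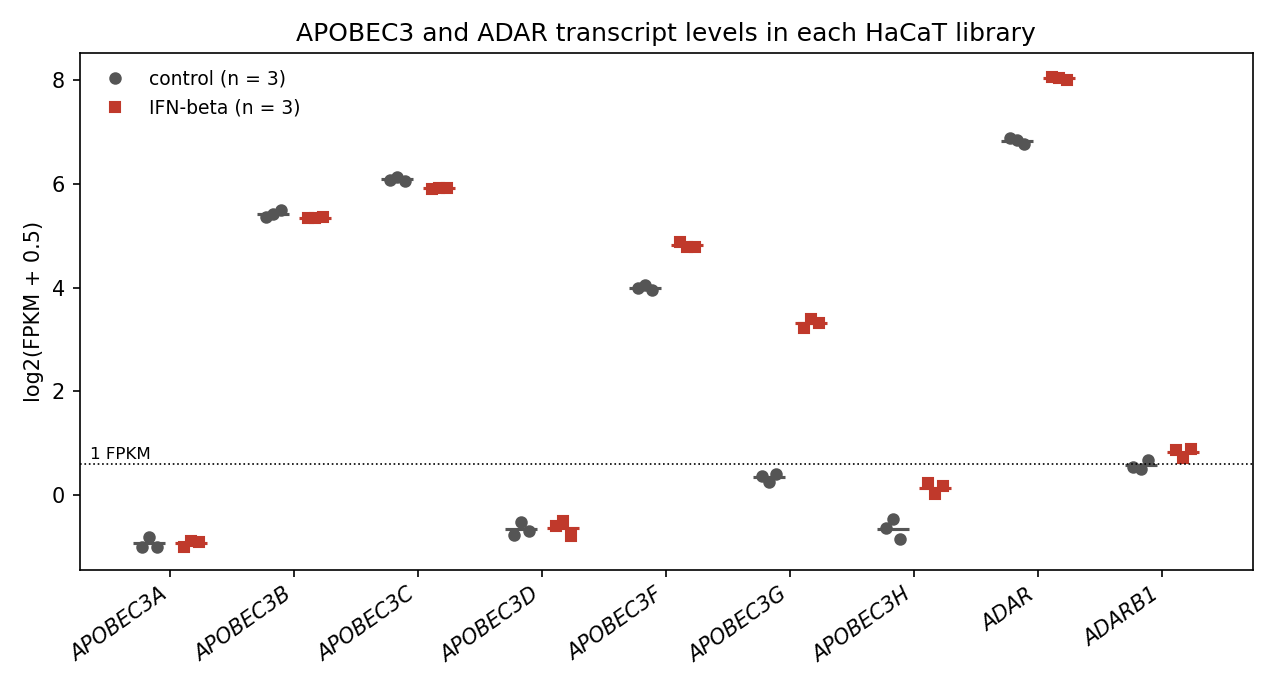
Level of each of the 9 deaminase genes in each library, as log2(FPKM + 0.5) on the vertical axis, with control libraries as grey circles, IFN-beta libraries as red squares, group means as short lines and 1 FPKM as a dotted line. APOBEC3G crosses the dotted line from 0.764 to 9.43 FPKM, ADAR and APOBEC3F stand higher with IFN-beta, and APOBEC3B overlaps between groups.

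Of the 9 members 6 passed the filter on level, each with a control mean above it, and 4 of these passed the test, where 42.4% of all tested genes did. ADAR, APOBEC3F and APOBEC3G rose, where 22.5% of all tested genes were called higher, and APOBEC3C fell, where 19.9% were called lower. APOBEC3B and ADARB1 did not pass. APOBEC3A, APOBEC3D and APOBEC3H were under the filter and are described from their values and from a fit without it. Among the 6 tested members, every IFN-beta library stood above every control library in 4 and below in 1, against 28.6% and 25.4% of tested genes, or 54.0% in either direction. The untested APOBEC3H was above as well. A call with a rise of at least 2-fold was made in ADAR and APOBEC3G, and in 2.96% of tested genes. The median log2 change of the 6 tested members was 0.53, and that of all tested genes 0.01. In whole-culture RNA, fewer cells of a type and less RNA per cell cannot be told apart.

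APOBEC3G (ENSG00000239713, chromosome 22, 39077067 to 39087743) encodes the enzyme best known for blocking HIV-1 that lacks its Vif protein. It read 0.788, 0.683 and 0.820 FPKM in the controls and 8.80, 9.97 and 9.51 FPKM with IFN-beta. All 3 IFN-beta libraries were high and the groups did not overlap. The means were 0.764 ± 0.0719 and 9.43 ± 0.586 FPKM, a 12.3-fold ratio of mean FPKM. On the log2(FPKM + 0.5) scale the change was 2.97 ± 0.096 (limma adjusted p = 4.07e-08), and only 51 tested genes, or 0.336%, had a larger one. The control level lay near the pseudocount, so the log2 change depends on it: it was 3.47 with a pseudocount of 0.1 and 2.56 with 1. Behind the values stood 33, 29 and 30 reads in the controls and 376, 375 and 412 with IFN-beta. Their depth-scaled ratio was 12.4 (95% exact interval 9.99 to 15.5, counting error only, since reads are not independent molecules).

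APOBEC3F (ENSG00000128394, chromosome 22, 39040604 to 39055972), the second member known for acting on HIV-1 without Vif, was already expressed in the controls. It read 15.4, 16.1 and 15.0 FPKM there and 28.8, 27.1 and 27.0 FPKM with IFN-beta. The groups did not overlap, and the means of 15.5 ± 0.548 and 27.6 ± 0.990 FPKM gave a ratio of 1.79. The log2 change was 0.82 ± 0.050 (limma adjusted p = 3.98e-06), and 4.04% of tested genes had a larger one.

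APOBEC3H (ENSG00000100298, chromosome 22, 39097224 to 39104067), a single-domain enzyme that differs much in activity between human haplotypes, stayed low in all 6 libraries. It read 0.137, 0.225 and 0.0523 FPKM in the controls and 0.672, 0.509 and 0.618 FPKM with IFN-beta. The 3 IFN-beta libraries were above the 3 controls, with means of 0.600 ± 0.0833 and 0.138 ± 0.0865 FPKM. In the fit without the filter its log2 change was 0.79 ± 0.134 (limma adjusted p = 0.00832), where 10.2% of 30507 genes were called higher. The values rested on 3, 5 and 1 recovered reads in the controls and 15, 10 and 14 with IFN-beta, a depth-scaled ratio of 4.24 (95% exact interval 2.02 to 9.95, counting error only). With so few reads, only the ratios of the counts are sure, and the true numbers could be whole multiples of these.

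APOBEC3C (ENSG00000244509, chromosome 22, 39014257 to 39020352), a single-domain enzyme with weak activity on HIV-1, had the highest deposited FPKM of the APOBEC3 genes in every library. It read 66.7, 69.6 and 66.1 FPKM in the controls and 59.1, 60.4 and 60.2 FPKM with IFN-beta. All 3 IFN-beta libraries were lower than all 3 controls. The means were 67.4 ± 1.84 and 59.9 ± 0.717 FPKM and the log2 change was -0.17 ± 0.037 (limma adjusted p = 0.00624), a small fall. Rescaling each library to the same sum left -0.12 (limma adjusted p = 0.0295). The rank of APOBEC3C above APOBEC3B depends on gene length. The recovered lengths were 1850 bases for APOBEC3C and 1519 for APOBEC3B, while their reference transcripts have 2818 and 1533 bases. Divided by the reference lengths, the recovered reads would not put APOBEC3C above APOBEC3B in every library.

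APOBEC3B (ENSG00000179750, chromosome 22, 38982347 to 38992804), a nuclear enzyme linked to cytosine mutations in tumours, was next by deposited FPKM. It read 40.4, 42.1 and 44.5 FPKM in the controls and 39.8, 40.1 and 40.5 FPKM with IFN-beta, so the groups overlapped. The means were 42.3 ± 2.06 and 40.1 ± 0.333 FPKM, with a log2 change of -0.08 ± 0.045 (limma adjusted p = 0.213). Between 1618 and 1917 reads stood behind each value.

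APOBEC3A (ENSG00000128383, chromosome 22, 38952741 to 38992778 in the table, an interval that runs over APOBEC3B) is known from myeloid cells and from keratinocytes. It was listed at 0, 0.0687 and 0 FPKM in the controls and at 0, 0.0388 and 0.0337 FPKM with IFN-beta, or at most 2 recovered reads in a library. A count of 0 allows up to 3 reads, which is 0.102 to 0.120 FPKM at a length of 966 bases. Neither group was above that floor, and no fold is given. The length is the smallest that gives whole reads, so the true reads could be whole multiples and the floor lower. The call of not detectable rests on it. Of its reference transcript, 29.2% of the overlapping 50-base words also occur in transcripts of other genes, 20% in APOBEC3B.

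APOBEC3D (ENSG00000243811, chromosome 22, 39021113 to 39033277), which also acts on HIV-1 without Vif, read 0.0801, 0.197 and 0.115 FPKM in the controls and 0.157, 0.201 and 0.0774 FPKM with IFN-beta. The groups overlapped, and in the fit without the filter the log2 change was 0.03 ± 0.104 (limma adjusted p = 0.87). The ratio of recovered reads was 1.08 (95% exact interval 0.553 to 2.13, counting error only). In GENCODE release 29, 83.2% of its exonic bases also belong to AL022318.4, a read-through gene joined to APOBEC3C that was listed at 0 in all 6 libraries. Among protein-coding genes with over 80% of their exonic bases shared on the same strand, 461 of 466, or 98.9%, had a mean under 0.5 FPKM. The share was 76.7% at over 50 to 80% shared, 30.3% at over 0 to 50% and 42.9% in genes that share none, so it did not rise steadily. How the authors counted reads in exons of more than 1 gene is not given in the sources used here. Whether sharing lowered the value of APOBEC3D was not tested, and its low value is not read as absence.

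Sequence shared between the APOBEC3 copies touched the other members to different degrees. In 50-base words the share found in other genes' transcripts was 51.4% in APOBEC3B, 24.2% in APOBEC3F, 19.1% in APOBEC3G, 1.3% in APOBEC3C and 0 in APOBEC3H, ADAR and ADARB1. In 100-base words it was 36.5% in APOBEC3B, 13.5% in APOBEC3F and 11.3% in APOBEC3G. Reads from those stretches can be split between copies or dropped, so the levels of APOBEC3B, APOBEC3F and APOBEC3G are less certain than those of APOBEC3C and ADAR.

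The make-up of the APOBEC3 transcript pool moved more than its size. The 7 genes summed to 123, 129 and 127 FPKM in the controls and to 137, 138 and 138 FPKM with IFN-beta. APOBEC3C held 53.4% ± 1.02 of the sum in controls and 43.4% ± 0.364 with IFN-beta, and APOBEC3B 33.5% ± 1.43 and 29.1% ± 0.208. APOBEC3F went from 12.2% ± 0.360 to 20.1% ± 0.788 and APOBEC3G from 0.605% ± 0.0655 to 6.84% ± 0.399. By deposited FPKM APOBEC3C thus stayed the largest share and APOBEC3G the fourth in every treated library. The shares, and the order of APOBEC3C and APOBEC3B in them, depend on the gene lengths behind the FPKM values.

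**Figure D2:**
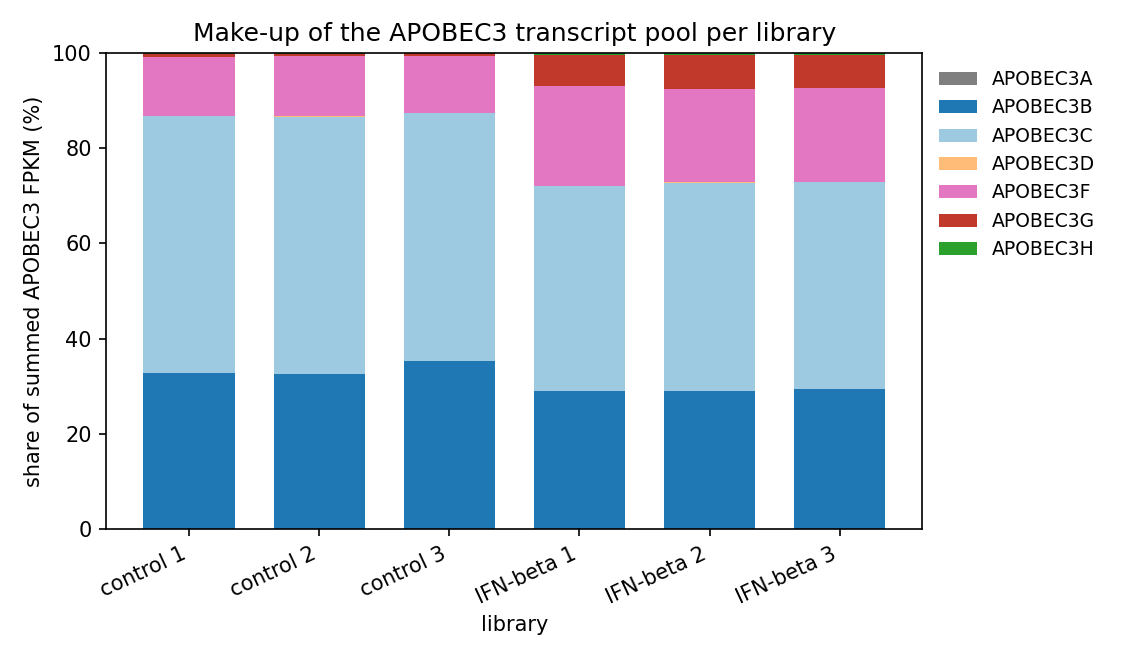
Share of the summed APOBEC3 FPKM held by each of the 7 APOBEC3 genes (vertical axis, percent) in each of the 6 libraries, as stacked bars. The APOBEC3F and APOBEC3G segments are taller in the 3 IFN-beta libraries, where they hold 20.1% and 6.84% on average against 12.2% and 0.605% in the controls.

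Ratios within a library do not depend on how libraries are scaled, and 4 pairs were compared. APOBEC3G stood at 0.0118, 0.00982 and 0.0124 of APOBEC3C in the controls and at 0.149, 0.165 and 0.158 with IFN-beta. APOBEC3F stood at 0.230, 0.231 and 0.226 of APOBEC3C in the controls and at 0.487, 0.449 and 0.449 with IFN-beta. Neither pair overlapped between groups, with log2 differences of 3.80 and 1.01 (two-sided exact permutation p = 0.1 each, adjusted p = 0.133, and 0.1 is the smallest that 3 against 3 libraries allow). APOBEC3B over APOBEC3C was 0.606, 0.605 and 0.673 in the controls and 0.674, 0.664 and 0.672 with IFN-beta, which overlapped (log2 difference 0.09, exact permutation p = 0.3, adjusted p = 0.3).

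ADAR (ENSG00000160710, chromosome 1, 154582057 to 154628013) was the most abundant member per length in both groups, and its control level was above that of 92.1% of tested genes. It read 118, 115 and 108 FPKM in the controls and 269, 263 and 257 FPKM with IFN-beta. The groups were far apart beside their spread, with means of 114 ± 5.40 and 263 ± 6.08 FPKM and a ratio of 2.32. The log2 change was 1.21 ± 0.043 (limma adjusted p = 8.74e-08), and 319 tested genes, or 2.1%, had a larger one. At least 10839 reads stood behind each value. ADAR makes a long protein, p150, from an interferon-inducible start site and a shorter nuclear protein, p110, from others. In GENCODE release 29, coding sequences of 3678 bases begin from transcript starts at 154608186 and 154608248, and those of 2793 bases from starts such as 154628013. A value per gene cannot tell these forms apart.

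ADARB1 (ENSG00000197381, chromosome 21, 45073853 to 45226560) encodes ADAR2, the enzyme known for editing glutamate receptor transcripts in the brain. It read 0.948, 0.914 and 1.09 FPKM in the controls and 1.32, 1.13 and 1.35 FPKM with IFN-beta. Every IFN-beta library was above every control, with means of 1.27 ± 0.122 and 0.983 ± 0.0910 FPKM. The log2 change of 0.25 ± 0.131 did not pass (limma adjusted p = 0.151). It did pass without the trend in the variance (0.25, limma adjusted p = 0.0387) and in limma voom fitted to recovered reads (0.38, limma adjusted p = 0.0489), so the call depends on the model. Quantile normalization took the change down to 0.14 (limma adjusted p = 0.434). The depth-scaled ratio of its reads was 1.30 (95% exact interval 1.11 to 1.54). That interval pools the libraries of a group and covers counting error only, not the spread between libraries or copies of 1 molecule, so it is no test of the treatment.

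ADAR stood at 124, 126 and 99.1 times ADARB1 in the controls and at 204, 234 and 190 times with IFN-beta. The ratios did not overlap between groups (log2 difference 0.85, exact permutation p = 0.1, adjusted p = 0.133).

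In order of deposited FPKM, which depends on the gene lengths used, the controls ran ADAR, APOBEC3C, APOBEC3B, APOBEC3F, ADARB1, APOBEC3G, APOBEC3H, APOBEC3D and APOBEC3A. Among neighbours in that order APOBEC3H and APOBEC3D overlapped over the 3 libraries, and APOBEC3D and APOBEC3A could not be separated, since APOBEC3D reached below the 3-read floor of APOBEC3A. With IFN-beta APOBEC3G stood above ADARB1, APOBEC3D and APOBEC3A were again not separated by that floor, the other neighbours did not overlap, and the rest of the order was as in the controls.

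The start sites were read for motifs of interferon signalling where the RefSeq promoter table (GRCh38.p14) holds the gene, with windows from 250 bases before to 50 after a start. It has 1 window for APOBEC3H, 3 for ADAR and 4 for ADARB1. Some windows of ADAR overlap each other, as do some of ADARB1, so an absence from so few windows says little. APOBEC3A, APOBEC3B, APOBEC3C, APOBEC3D, APOBEC3F and APOBEC3G were not matched. The core of the interferon-stimulated response element (GAAA, any 2 bases, GAAA) was searched on both strands and was in 0 of these windows, against 3.57% of 35116 windows in the table. TTCNNNGAA, the site of STAT dimers, which reads the same on both strands, was in 0 of them, against 7.66%. AANNGAAA, the shorter core of IRF factors that also lies within the first motif, was searched on both strands and found once, in APOBEC3H, beginning at position 29 with the start site counted as 1, and 22.8% of all windows hold it. The match is shown with its surroundings, the motif in capitals, and beside it the 250 bases before the farthest upstream ADAR start among the table's windows, which held none of the 3.
APOBEC3H (chr22:39097264-39097287, plus strand): gctgccaaAAGTGAAActtagtgc
ADAR (chr1:154627998-154628247, minus strand): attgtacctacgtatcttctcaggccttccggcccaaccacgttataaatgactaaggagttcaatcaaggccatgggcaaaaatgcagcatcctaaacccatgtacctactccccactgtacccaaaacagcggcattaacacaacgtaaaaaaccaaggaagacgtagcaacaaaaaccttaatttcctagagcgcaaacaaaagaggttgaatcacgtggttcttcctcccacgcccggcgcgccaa
A match is a description of letters and not a bound site. The table has no window for the ADAR starts at 154608186 and 154608248, from which the long coding sequences of 3678 bases begin. The windows searched therefore say nothing of motifs at those starts.

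The 7 APOBEC3 genes lie side by side from 38952741 to 39104067 on chromosome 22. Within 250 kb on either side and between them the table lists 30 other genes. Of these 15 were tested, 6 rose, 4 fell and 5 did not pass, with a median log2 change of 0.32. Over all tested genes 22.5% were called higher and 19.9% lower, with a median of 0.01. GTPBP1, a GTP-binding protein gene, rose from 31.5 ± 2.70 to 63.8 ± 5.71 FPKM (1.01 on the log2 scale, limma adjusted p = 1.61e-05). SUN2, a protein of the inner nuclear membrane, fell from 54.6 ± 4.14 to 33.4 ± 1.35 FPKM (-0.70, limma adjusted p = 3.29e-05). AL031846.1, a transcribed pseudogene between APOBEC3G and APOBEC3H, rose from 0.915 ± 0.284 to 3.05 ± 0.464 FPKM (1.34, limma adjusted p = 3.90e-04). The antisense genes AL021707.6 (1.21), AL021707.1 (0.83) and AL021707.7 (0.72) also rose. AL021707.1 has 47.2% of its exonic bases opposite SUN2 exons, and the use of strand in counting is not given in the sources used here. CBX6, the nearest tested gene before the cluster, had a log2 change of -0.04 (limma adjusted p = 0.534).

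**Figure D3:**
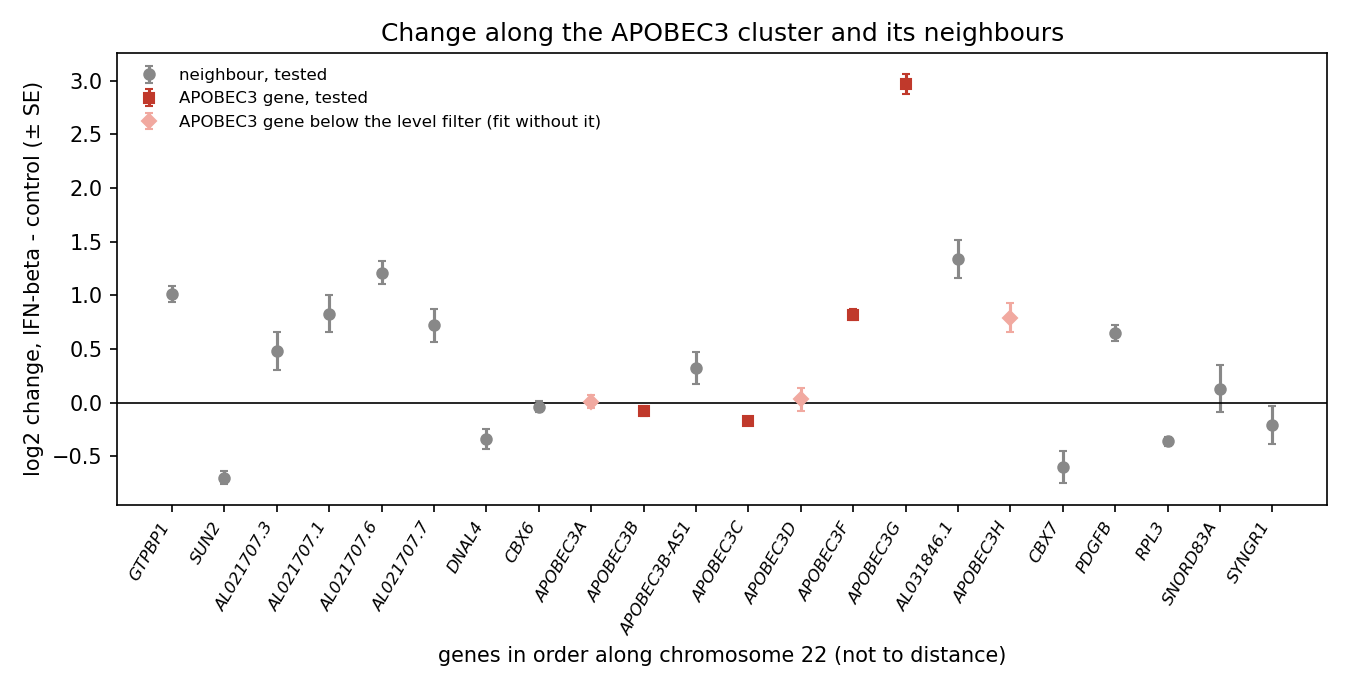
Log2 change with IFN-beta (vertical axis, ± SE) of the APOBEC3 genes and the 15 tested neighbours in their order along chromosome 22, with tested APOBEC3 genes in red, untested ones in pale red from the fit without the filter and neighbours in grey. APOBEC3G (2.97) stands highest, APOBEC3B (-0.08) and APOBEC3C (-0.17) lie near 0, and the neighbours run from -0.70 to 1.34.

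Of the other members of the APOBEC, ADAR and tRNA deaminase families, 3 of 10 were tested. APOBEC4 and ADAD1 were listed at 0 in all 6 libraries, and APOBEC1, APOBEC2, ADARB2 and ADAD2 had group means of at most 0.0392 FPKM. ADAT1, which deaminates adenosine in a tRNA, fell from 58.8 ± 3.18 to 51.8 ± 1.31 FPKM (-0.18 on the log2 scale, limma adjusted p = 0.0143), a call that ended without control 2 (limma adjusted p = 0.0567) or IFN-beta 3 (limma adjusted p = 0.0555). ADAT2, a tRNA wobble deaminase subunit, rose from 5.26 to 6.22 FPKM in the controls to 6.55 to 7.35 FPKM with IFN-beta (log2 change 0.26, limma adjusted p = 0.036). That call ended without control 1 (limma adjusted p = 0.103), IFN-beta 1 (limma adjusted p = 0.113) or IFN-beta 2 (limma adjusted p = 0.103), and also with no filter on level, quantile normalization, size factors or the replicate number as a block (limma adjusted p = 0.0809, 0.122, 0.0585 and 0.0629). Its partner ADAT3 did not pass (0.05, limma adjusted p = 0.858).

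Uracil made by APOBEC3 enzymes is removed by base excision repair. Of 13 uracil and abasic site repair genes tested, 4 rose, 6 fell and 3 did not pass, with a median of -0.11. Among all tested genes 22.5% were called higher and 19.9% lower. The uracil glycosylase UNG fell from 26.6 ± 1.06 to 21.4 ± 0.323 FPKM (-0.31 on the log2 scale, limma adjusted p = 8.87e-04). The abasic endonuclease APEX1 fell from 338 ± 6.59 to 270 ± 2.91 FPKM (-0.33, limma adjusted p = 9.25e-05). SMUG1, another uracil glycosylase, fell by 0.33 and DUT, which keeps uracil out of the nucleotide pool, by 0.27 on the log2 scale. TDG (0.04) and HMCES (-0.09) did not pass. The 4 that rose were POLB, the gap-filling polymerase of this repair (0.24, limma adjusted p = 0.00476), APEX2 (0.21, limma adjusted p = 0.0113), MBD4 (0.15) and REV1 (0.12). POLB and APEX2 kept their calls in all 17 alternatives. MBD4 lost its call without control 1 or 2 or IFN-beta 2 or 3 (limma adjusted p = 0.0802 to 0.143), and REV1 without control 2 or any IFN-beta library (limma adjusted p = 0.0745 to 0.114). Of those that fell, LIG1 lost it without control 2 or IFN-beta 1 or 2 (limma adjusted p = 0.0533 to 0.0547).

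Inosine made by ADAR keeps double-stranded RNA from its sensors. Of 9 sensors and effectors 7 rose, 1 fell and 1 did not pass, with a median of 3.09. Calls over all tested genes were 22.5% higher and 19.9% lower. IFIH1 rose from 18.5 ± 0.453 to 178 ± 5.41 FPKM (3.23 on the log2 scale, limma adjusted p = 6.84e-11), above the 1.21 of ADAR. The oligoadenylate synthetases OAS2 (5.63), OAS1 (4.56) and OAS3 (3.31) rose with it, and EIF2AK2 (PKR), a kinase that stops translation, by 1.56. ZBP1, which binds Z-form nucleic acid as ADAR p150 does, was listed at 0 in all 3 controls and at 1.95, 2.09 and 2.52 FPKM with IFN-beta. MAVS, the adaptor of IFIH1, fell (-0.22, limma adjusted p = 0.0213), a call lost on leaving out control 1, control 2, IFN-beta 1 or IFN-beta 2 (limma adjusted p = 0.0556, 0.0598, 0.0724 and 0.0615).

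Of 10 proteins known to carry, bind or modify ADAR or to share its substrates, 2 rose, 0 fell and 8 did not pass. Their median was -0.04. The rises are near the share over all tested genes, of which 22.5% were called higher and 19.9% lower. XPO5, an exporter of structured RNA, rose by 0.20 (limma adjusted p = 0.00204) and STAU1, a double-stranded RNA binder, by 0.17 on the log2 scale (limma adjusted p = 0.00908). DHX9, an RNA helicase, read 404 ± 14.1 and 390 ± 1.64 FPKM (-0.05 on the log2 scale, limma adjusted p = 0.308).

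Beside the APOBEC3 genes stand other factors that restrict retroviruses. All 11 that were tested, of 12, rose, where 22.5% of all tested genes were called higher. Their median was 2.40, with changes from MX2 (8.61), BST2 (7.85), IFITM1 (3.49) and HERC5 (3.23) down to SLFN11 (0.40). APOBEC3G, at 2.97, lay inside that range, and APOBEC3B and APOBEC3C below it. The 12th, TREX1, was listed at 0 in every library and shares all its exonic bases with ATRIP.

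Of 7 regulators linked to APOBEC3B in other cells, 1 rose, 1 fell and 5 did not pass. Among all tested genes 22.5% were called higher and 19.9% lower. RELB, a subunit of noncanonical NF-kB, rose from 8.38 ± 0.437 to 12.1 ± 1.27 FPKM (0.50 on the log2 scale, limma adjusted p = 0.00143). FOXM1, a cell cycle factor, fell from 96.1 ± 4.82 to 88.1 ± 0.887 FPKM (-0.12, limma adjusted p = 0.0438), a call that ended on leaving out control 1 or 2 or any IFN-beta library (limma adjusted p = 0.0705 to 0.118). E2F4, a cell cycle factor, did not pass (0.10). It did without control 1 (limma adjusted p = 0.0251) and with each library rescaled to the same sum (limma adjusted p = 0.0192).

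Several APOBEC3 genes are known from blood cells, so leukocyte markers were read beside them. Of 8, LYZ and NKG7 were at 0 in all 6 libraries, PTPRC (CD45) averaged 0.00770 FPKM in controls and 0 with IFN-beta, and CD3E 0 and 0.0383 FPKM. The 8 summed to 3.26 to 4.63 FPKM in controls and 4.47 to 4.79 with IFN-beta, carried by CD14 (3.18 ± 0.678 and 3.51 ± 0.274 FPKM, limma adjusted p = 0.438). ITGAM rose from 0.519 ± 0.111 to 0.989 ± 0.218 FPKM (limma adjusted p = 0.0322), a call that ended without control 1 or 3 or IFN-beta 1 or 2 (limma adjusted p = 0.0737 to 0.106). Of 8 fibroblast, endothelial and melanocyte markers, MLANA and TYR were at 0 in all libraries. The melanocyte marker PMEL was above 1 FPKM in all 6, at 1.41 ± 0.00470 FPKM in controls and 1.57 ± 0.224 with IFN-beta (limma adjusted p = 0.511). The 8 summed to 2.88 to 3.87 FPKM in controls and 3.85 to 5.17 with IFN-beta. COL1A1 among them rose from 1.80 ± 0.461 to 2.69 ± 0.401 FPKM (limma adjusted p = 0.0391). Its call ended without control 2 or 3 or IFN-beta 1 or 2 (limma adjusted p = 0.0867 to 0.129). The part of either list in the deaminase levels was not tested.

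The tested genes nearest in profile to each member were found by root mean square distance over the 6 libraries. Profiles were log2(FPKM + 0.5), each centred on its mean in the controls. Centring takes out the control level, but the added 0.5 makes the changes of low genes smaller. Distances of genes near 1 FPKM in controls, such as APOBEC3G and ADARB1, therefore still depend on level. For APOBEC3G the nearest genes included KLHDC7B-DT (0.101) and HELZ2 (0.109). HELZ2 rose from 13.7 to 107 FPKM, a log2 change of 2.92. For ADAR they were SOX9 (0.030), EHD4 (0.038) and NEURL3 (0.040), and for APOBEC3F FZD5 (0.037), PHLDA1 (0.039) and SPATS2L (0.045). For APOBEC3C they were S100A14 (0.010), CYB561 (0.013) and RAD17 (0.013), and for APOBEC3B PPIG (0.010), CCZ1 (0.015) and ADSS2 (0.015). For ADARB1 they included ALG11 (0.034) and CCDC73 (0.038). A small distance says only that the 6 values ran alike.

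**Figure D4:**
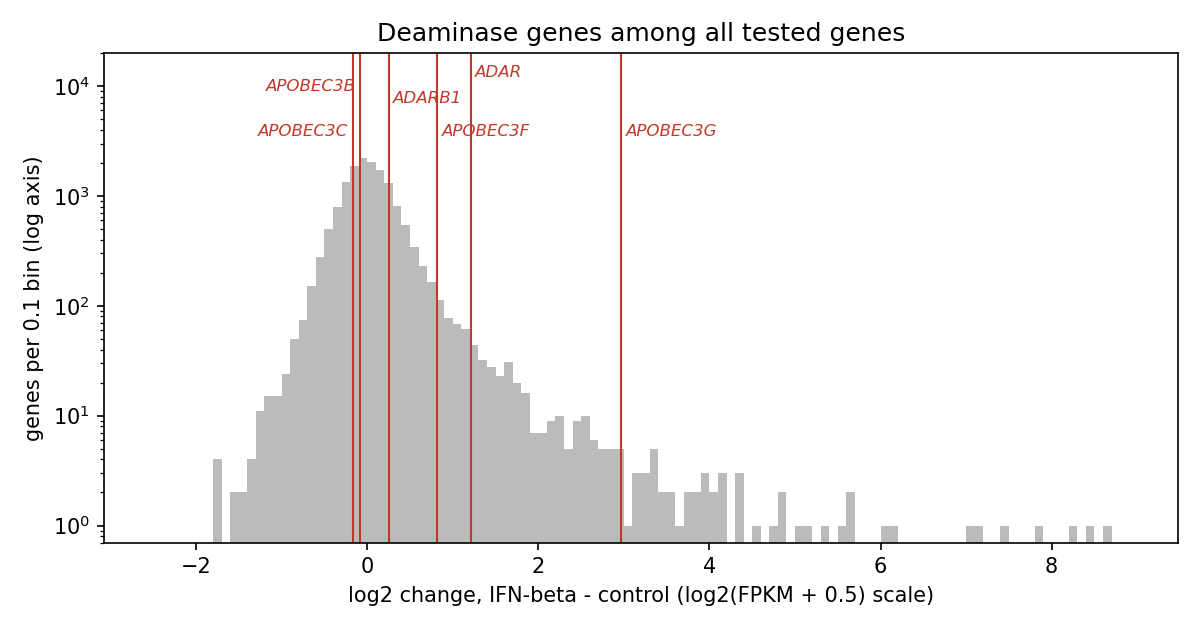
Number of tested genes per bin of log2 change with IFN-beta (vertical axis on a log scale, bins of 0.1 on the horizontal axis), with the 6 tested deaminase genes as red lines. APOBEC3B, APOBEC3C and ADARB1 lie within the bulk of the 15163 genes, while APOBEC3F (0.82), ADAR (1.21) and APOBEC3G (2.97) lie in its right tail.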

How the data were processed

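The authors deposited 1 table of FPKM values with human Ensembl identifiers, 1 column per library, in which FPKM scales fragments by gene length and library depth. The labels' protocols list CLC Genomics Workbench 11.0.1 with no step, and the submitters' processing notes name the mouse builds GRCm38 and mm10. All 60671 identifiers are human, and 44942 of the 58453 shared with GENCODE release 29 (76.9%) have its coordinates, so the build of printed gene coordinates is inferred as GRCh38. The aligner, counting method, read length and use of strand were not given in the sources used here.

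Whole reads were recovered from the FPKM steps for 30507 of 30507 genes above 0, within 0.01 reads, and summed to 99.79% to 99.81% of the library totals. Of these genes 10192 used the GENCODE release 29 exon length. For the others the smallest length that gave whole reads was taken. Such a length is easily found for genes with few reads, so full recovery is no check there. Log2(FPKM + 0.5) was fitted with limma 3.58.1 in R 4.3.3 (eBayes with a trend, two-sided) over genes averaging 0.5 FPKM or more, and the fit was tested on simulated data. Alternatives were pseudocounts of 0.1 and 1, no filter, a mean FPKM of at least 2, equal sums (TPM), quantile normalization, size factors, eBayes without trend or robust, the replicate number as a block, limma voom on recovered reads, and each library left out. Exact permutation tests used scipy 1.17.1 and exon overlaps bedtools 2.31.1.

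Members and lists were chosen with earlier results of these data known. Named are the 9 members, up to 4 called genes of each list by size of change and up to 2 not called by level, up to 6 called neighbours of the APOBEC3 genes, and the 3 genes nearest to each tested member. Some genes that this rule covers are not reported here. EIF2AK2, ZBP1, MAVS, SLFN11, LIG1, POLB, APEX2, MBD4, REV1, CBX6 and AL022318.4 and the genes at or near 0 were named after their values were seen, as was the check of shared exons.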

Additional observations from a re-analysis of the deposited data

How the results depend on the processing

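The calls of APOBEC3B, APOBEC3C, APOBEC3F, APOBEC3G and ADAR, and their directions, were the same under all 17 alternatives, and of the other members ADARB1 gained a call in the 2 models given with it. In the other lists HMCES passed with quantile normalization and with size factors (limma adjusted p = 0.0256 and 0.0329). KRT14 passed with quantile normalization and with equal sums (limma adjusted p = 5.26e-04 and 0.0366). E2F4 passed with equal sums (limma adjusted p = 0.0192). The calls of MBD4, REV1, LIG1, MAVS, FOXM1, CDADC1, ITGAM and COL1A1, which left-out libraries ended, also ended under at least 1 other alternative. Leaving out each library in turn gave log2 changes of -0.11 to -0.04 for APOBEC3B, -0.18 to -0.15 for APOBEC3C, 0.79 to 0.85 for APOBEC3F, 2.93 to 3.02 for APOBEC3G, 1.17 to 1.24 for ADAR and 0.22 to 0.31 for ADARB1. Over all genes it left 2715 to 3359 higher and 2370 to 3000 lower, against 3419 and 3012. Leaving out the 3 lists of cell type markers, genes of the other lists called lower numbered 11, then 7 without the filter and 6 to 12 with 1 library left out (6 without control 2 and 7 without IFN-beta 1), and those called higher 34, then 31 to 36. Neighbours called higher numbered 6, then 3 of fewer genes tested with a mean FPKM of at least 2. Same-numbered libraries did not deviate together (r = -0.052, -0.098 and -0.058), so no large shared shift went with the number. Deviations from means of 3 libraries cannot settle whether same-numbered libraries were paired. With the number as a replicate block, 3082 genes were higher and 2735 lower, and 3 members rose and 1 fell as before.

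The 3 libraries per group limit each exact test to p = 0.1, or 0.2 with 1 left out. Depth limits APOBEC3A, APOBEC3D and APOBEC3H, at 0 to 15 recovered reads per library, and the sharing of sequence limits the APOBEC3 copies. Scaling moved the median log2 change of all genes from 0.01 as deposited to between -0.050 and 0.053, which is small beside the changes of APOBEC3F, APOBEC3G and ADAR and not beside that of APOBEC3B.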

Other observations

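Deaminases of free nucleosides, nucleotides and bases act on small molecules rather than on DNA or RNA. Of 9 such genes 7 were tested, of which 1 rose, 2 fell and 4 did not pass (median log2 change -0.11). Calls over all tested genes were 22.5% higher and 19.9% lower. GDA, the guanine deaminase, read 3.87, 3.71 and 3.04 FPKM in controls and 6.27, 6.53 and 5.58 FPKM with IFN-beta, a rise of 0.72 on the log2 scale (limma adjusted p = 6.76e-04). CDA, the cytidine deaminase that salvages free cytidine, read 39.0, 36.0 and 35.1 FPKM in controls and 31.5, 31.9 and 31.0 FPKM with IFN-beta, a log2 change of -0.22 (limma adjusted p = 0.0073). CDADC1 fell as well (-0.20, limma adjusted p = 0.0382), but the call ended without control 2 or without any of the IFN-beta libraries (limma adjusted p = 0.0672 to 0.136). DCTD, the dCMP deaminase, read 62.8 ± 2.22 and 64.7 ± 2.17 FPKM and did not pass (0.04, limma adjusted p = 0.463).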
